A study of Homo sapiens with 6 samples.

Results

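Solute carriers are membrane proteins that move small molecules across the plasma membrane or the membranes of organelles, and their genes share the symbol stem SLC, with the organic anion transporting polypeptides written SLCO. The members described here are all protein-coding genes with such a symbol in a table of 2462 genes that compares bladder cancer cells with a drug-resistant strain of the same line. There were 46 of them, among 1924 protein-coding genes in the table and 381 protein-coding genes with carrier symbols of this form in the GENCODE version 44 annotation. RNA-seq was done on 3 libraries of T24, an established line of human urinary bladder carcinoma, and on 3 libraries of T24-R, which the labels call T24DDP. T24-R was derived by the authors from T24 by culture in rising concentrations of cisplatin and gemcitabine, and no other agent or engineered allele is given for either group. T24-R is 1 selected strain of 1 line, and neither a passage-matched control nor the presence of drug at RNA collection is described. The methods state, for the study in general, that replicates were independent biological ones, while the labels of these libraries do not say whether they came from separate cultures. The p-values measure the spread between these libraries, part of which may be technical.

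Some solute carriers work as facilitators, which let a substrate run down its gradient, and others as exchangers or cotransporters, which couple it to sodium, protons or a second substrate. Gemcitabine is a nucleoside analogue and enters cells through nucleoside transporters, and organic cation transporters have been studied as carriers of platinum drugs. Other families bring in the amino acids, sugars and vitamins that a cell cannot make, export lactate, set cytosolic pH and volume, or, in the SLC25 family, exchange metabolites across the inner mitochondrial membrane. The members were sorted into substrate classes by family, with some genes placed singly. Among these, SLC43A3 was put with the nucleoside carriers, apart from its relative SLC43A2. SLC29A4 was put with the organic ion carriers, apart from its relative SLC29A2. The largest classes in the table were amino acid carriers (14 of 70 annotated genes of the class), organic ion carriers (7 of 63), mitochondrial carriers (6 of 46) and inorganic ion carriers (5 of 57). Nucleoside carriers had 2 of 8, sugar carriers 3 of 31, metal carriers 2 of 37, carboxylate carriers 3 of 17, lipid and vitamin carriers 3 of 19 and nucleotide sugar carriers 1 of 30. Coordinates below are those of the table, on GRCh38.

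The values are scaled counts, that is, reads per gene divided by 1 size factor per library. The size factors, which give relative depth, spanned 0.939–1.03 for T24 libraries and 1.00–1.08 for T24-R libraries, and the listed genes held 1170731 to 1411926 reads per library. A library with 3 reads or fewer of a gene was treated as at the floor of detection, a limit that covers counting error only. Of 14 markers of epithelial and urothelial cells, 0 were listed, so the label of the line could not be checked against them. The protocol and genome build in the labels name retinas and a mouse assembly, at odds with the human line given for every sample, and the table holds human gene identifiers. Of 12 markers of immune, endothelial and fibroblast cells, 3 were listed (COL1A1, PECAM1 and ACTA2). Their summed scaled count was 58.2–84.2 for T24 libraries and 255–320.3 for T24-R libraries, which moves with the genes higher in T24-R, and its part in the results below was not tested. In bulk RNA, fewer cells that express a gene and less RNA of it per cell cannot be told apart.

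The table is not a survey of all transporters. The authors kept a gene in it for a change between these same libraries, so a difference in a member is fixed by the selection, and an SLC gene outside the table is only not listed. After that selection, the adjusted p-values below do not control the share of false calls. With limma on log2(value + 1), a gene was called where its adjusted p was below 0.05 and its log2 fold change (T24-R over T24) was beyond 1 in either direction. SE is the standard error of that fold change. By that rule 35 of the 46 members were higher in T24-R, 10 were lower, and SLC5A12 was not called. These are 76.1% and 21.7% of the members, beside 69.2% higher and 29.2% lower among all listed genes. The 3 libraries of T24 and the 3 of T24-R did not overlap in any of the 46 members (36 with T24-R above T24 and 10 below), nor in 99.1% of all listed genes (70.0% higher and 29.1% lower). These shares are not read as a result about transporters. The median log2 fold change was 1.59 over the members and 1.41 over all listed genes. With the genes at the floor in only 1 of the groups set to the lower bound of their fold, these medians were 1.51 and 1.32.

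Directions rest on the authors' size factors. Factors computed within the table by TMM (trimmed mean of M-values) shift the median log2 fold change of all listed genes by -1.32, and the split of called genes moves from 70.3% to 44.8% higher. TMM takes most genes as unchanged, while 98.3% of the listed genes, selected for a change, were called on the deposited scale. A median near 0 (0.09 with TMM factors) is therefore built into these factors. Which scale is closer to the cells was not tested, and a call lost with TMM factors carries this limit. On that scale the log2 fold change was above 0 in 27 members and below 0 in 19, so that 9 of the 46 changed sign, and 10 were called higher and 10 lower. The 10 called higher all had T24 means of at most 7.69, where the 1 added before taking logs lessens the shift. A higher call kept with TMM factors carries this limit. The 10 members called lower on the deposited scale were all called lower with TMM factors, at -2.42 to -2.89. As these factors shift log2 fold changes downward, a lower call was bound to be kept. A lower call kept with TMM factors, here or below, is therefore not support for it. A direction below is that of the deposited scale, and each described member that flips is given with its TMM value.

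**Figure D1:**
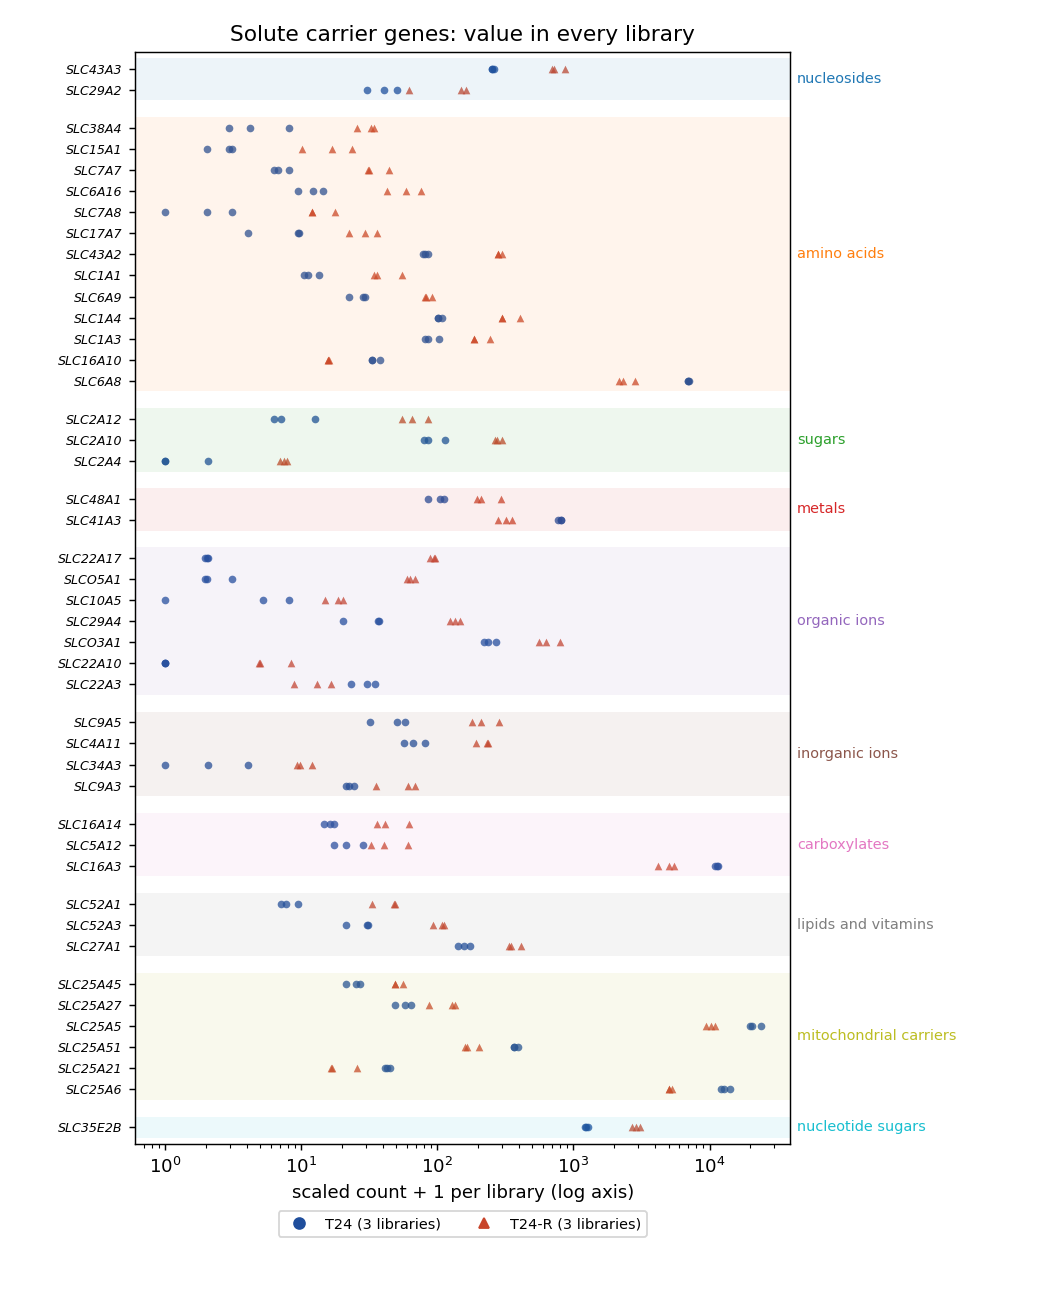
Scaled count + 1 (log axis) of 44 solute carrier genes in every library, grouped by substrate class, with circles for T24 and triangles for T24-R (3 libraries each). The 2 groups of points do not overlap in any row, and SLC5A12 has the narrowest gap in its class, between 27.7 in the highest T24 library and 31.4 in the lowest T24-R library.

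Both listed members of the nucleoside class were higher in T24-R on the deposited scale, and neither was called with TMM factors. SLC29A2 encodes the equilibrative nucleoside transporter ENT2, a facilitator that accepts gemcitabine. Its scaled counts (ENSG00000174669, chromosome 11, 66362521 to 66372214) were 50.03, 29.6 and 39.7 in T24 against 163, 149 and 60.7 in T24-R, from 47, 29 and 41 reads in T24 against 163, 161 and 62 in T24-R. T24-R replicate 3 lay far below the other two T24-R libraries and only just above the highest T24 library. The means were 124 ± 55.3 in T24-R and 39.8 ± 10.2 in T24 (SD, n = 3), 3.12-fold apart, with a log2 fold change of 1.52 (SE 0.38, adjusted p = 0.00375) and of 0.19 with TMM factors. Without T24-R replicate 3 the log2 fold change was 1.97, and it ranged from 1.27 to 1.97 when each library was left out in turn. In limma's treat, a test of a change beyond 1 on the log2 scale, the call was lost (adjusted p = 0.146). It was 1 of 16 calls lost with treat among the 44 members reported one by one. Of its exonic bases, 10.3% overlap an antisense gene. SLC43A3, an equilibrative carrier of purine nucleobases, was measured at 251, 250.3 and 258 in T24 against 714, 692 and 869 in T24-R (ENSG00000134802, chromosome 11, 57406954 to 57427580). All T24-R libraries lay above all T24 libraries. The log2 fold change was 1.57 (SE 0.12, adjusted p = 7.06e-06), or 0.22 with TMM factors. Of the exonic bases of SLC43A3, 29.9% are also exonic in another annotated gene on the same strand, so its reads may be shared.

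A list of 17 solute carrier genes linked to the transport of nucleoside drugs, platinum drugs, copper, cystine or folate had 2 members in the table, SLC29A2 and SLC22A3. The other 15, including the main gemcitabine carrier SLC29A1, the copper transporter SLC31A1, the cystine exchanger SLC7A11 and the folate carrier SLC19A1, are not listed, which does not say that their expression was the same. SLC22A3 encodes the organic cation transporter OCT3. It lies on chromosome 6, 160348268 to 160452581, and was measured at 34.1, 29.6 and 22.3 in T24 against 11.97, 15.7 and 7.83 in T24-R, from 32, 29 and 23 reads in T24 against 12, 17 and 8 in T24-R. Here the T24 libraries were the higher ones, and the groups did not overlap. The log2 fold change was -1.24 (SE 0.32, adjusted p = 0.00506), a 2.42-fold lower mean in T24-R. Without T24-R replicate 3, the lowest library, it was -0.99 and no longer passed the fold threshold.

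Among 7 members that carry organic cations, anions and drugs, 6 were higher and SLC22A3 was lower, and with TMM factors 3 were called higher (SLC22A17, SLCO5A1 and SLC22A10) and SLC22A3 lower. The largest differences were in SLC22A17 and SLCO5A1, both at the floor in every T24 library. SLC22A17, known as a receptor of the siderophore-binding protein lipocalin-2, gave 1, 1 and 1 reads in T24 against 87, 101 and 98 in T24-R (ENSG00000092096, chromosome 14, 23346306 to 23352912). SLCO5A1, an organic anion polypeptide with no settled substrate, gave 2, 1 and 1 reads in T24 against 59, 73 and 63 in T24-R. In both genes every T24-R library was far above every T24 library, and the 3 T24-R libraries lay close together. Against a floor of 3 reads per library the mean of T24-R was at least 30.1-fold higher for SLC22A17 and at least 20.5-fold higher for SLCO5A1. SLC29A4, the plasma membrane monoamine transporter, was 36.2, 35.8 and 19.4 in T24 against 124, 134 and 145 in T24-R. T24 replicate 3 was the lowest of the 6, and the groups were far apart. The means were 134 ± 10.6 in T24-R and 30.4 ± 9.60 in T24 (SD, n = 3), a 4.41-fold difference with a log2 fold change of 2.15 (SE 0.26, adjusted p = 6.7e-05), or 0.83 with TMM factors. The prostaglandin carrier SLCO3A1 had a log2 fold change of 1.45 (SE 0.16), which fell to 0.10 with TMM factors. The remaining members of the class were weakly covered. SLC10A5, a relative of the bile acid carriers, came out at 2.35 (SE 0.69), and at 1.45 without T24 replicate 3, which had 0 reads. Its call was lost with TMM factors (1.38), with either other pseudocount and with treat, which tests whether a change exceeds 1 on the log2 scale. SLC22A10 had 0 reads in all T24 libraries and at least 1.67-fold more than the floor in T24-R. It was called with TMM factors (2.17) but not with a pseudocount of 10 (0.59).

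Of 14 members that carry amino acids, peptides and related substrates, 11 were higher and 3 lower, and with TMM factors 4 were called higher and 3 lower. SLC1A3, the glial-type glutamate transporter, went from 1.19 to -0.15. SLC6A16, an orphan of the sodium- and chloride-coupled transmitter transporters, was 8.52, 11.2 and 13.5 in T24 against 57.9, 41.6 and 75.4 in T24-R. The T24-R libraries were spread, with replicate 3 the highest, and none reached down to T24. Its log2 fold change was 2.27 (SE 0.30, adjusted p = 0.000117), or 0.99 with TMM factors. SLC43A2, a sodium-independent facilitator of large neutral amino acids, was 77.7, 79.7 and 84.2 in T24 against 280.4, 299 and 276 in T24-R. The spread within either group was small beside the gap between them. The means were 285 ± 12.3 in T24-R and 80.5 ± 3.33 in T24 (SD, n = 3), 3.54-fold apart, with a log2 fold change of 1.81 (SE 0.13, adjusted p = 4.25e-06), or 0.47 with TMM factors. SLC6A9, the glycine transporter GlyT1, was 27.7, 28.6 and 21.3 in T24 against 89.8, 82.2 and 80.3 in T24-R, with no overlap and with T24-R replicate 3 close to the other two. Its log2 fold change was 1.67 (SE 0.20, adjusted p = 7.2e-05), or 0.35 with TMM factors.

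The other amino acid carriers higher in T24-R covered several transport modes. The sodium-coupled SLC38A4 came out at 2.72 (SE 0.40) on the log2 scale, from 3, 7 and 2 reads in T24. It was 3.03 with a pseudocount of 0.1 and 1.51 with a pseudocount of 10. SLC7A7, a light chain that exchanges cationic for neutral amino acids, had 2.31 (SE 0.28), from 5, 7 and 6 reads in T24. For SLC7A8, a light chain for neutral amino acids, T24 was at the floor, and T24-R lay at least 4.23-fold above it. The same held for the peptide transporter SLC15A1, at least 5.21-fold higher. Among glutamate and neutral amino acid carriers, the log2 fold change was 1.80 (SE 0.28) for SLC1A1, 1.66 (SE 0.16) for SLC1A4 and 2.00 (SE 0.40) for the vesicular glutamate transporter SLC17A7. With TMM factors these were 0.52, 0.31 and 0.77, and none of the 3 was called. SLC17A7 had 8, 3 and 9 reads in T24.

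Of the amino acid class members lower in T24-R, SLC6A8 was chosen for description after its values were seen. SLC6A8, the creatine transporter, was 7086, 6890.1 and 7007 in T24 against 2294, 2163 and 2821 in T24-R (ENSG00000130821, chromosome X, 153688099 to 153696593). All T24-R libraries lay below all T24 libraries, with replicate 3 the highest of them. The means were 2426 ± 348 in T24-R and 6994 ± 98.6 in T24 (SD, n = 3), 2.88-fold lower in T24-R, with a log2 fold change of -1.54 (SE 0.12, adjusted p = 8.33e-06). Of its 50-base stretches, 9.17% also occur in other annotated genes. SLC16A10, a carrier of aromatic amino acids, was low throughout and had a log2 fold change of -1.12 (SE 0.23).

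The 3 listed sugar transporters of the GLUT family were higher in T24-R, and 2 of them, SLC2A12 and SLC2A4, were also called with TMM factors. SLC2A12 (GLUT12) was 5.32, 6.13 and 11.6 in T24 against 53.9, 63.7 and 84.2 in T24-R. Every T24-R library was several times the highest T24 library. The means were 67.3 ± 15.5 in T24-R and 7.69 ± 3.42 in T24 (SD, n = 3), 8.75-fold apart, with a log2 fold change of 3.02 (SE 0.34, adjusted p = 4.24e-05), or 1.76 with TMM factors. Of its exonic bases, 51.2% overlap exons of TBPL1 on the opposite strand. As the use of strand in the authors' counting is not stated, reads of the 2 genes cannot be told apart there. SLC2A10 (GLUT10) was 78.8, 112 and 84.2 in T24 against 274, 296 and 265 in T24-R, with no overlap and the widest spread in T24. Its means were 278 ± 15.5 in T24-R and 91.8 ± 18.03 in T24 (SD, n = 3), with a log2 fold change of 1.61 (SE 0.17, adjusted p = 2.76e-05) on the deposited scale and 0.26 with TMM factors. SLC2A4, the insulin-responsive GLUT4, gave 1, 0 and 0 reads in T24 against 6, 7 and 7 in T24-R, at least 2.11-fold higher. Its fitted log2 fold change was 2.54, or 1.95 with TMM factors, and with a pseudocount of 10 it was 0.67 and not called.

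Metal carriers gave 1 member in each direction on the deposited scale, and with TMM factors SLC41A3 alone was called, as lower. SLC41A3, a magnesium transporter, was 812, 775 and 807 in T24 against 316, 353 and 280.1 in T24-R (chromosome 3, 126006355 to 126101561). The T24 libraries were tight and all well above T24-R. Its mean was 2.52-fold lower in T24-R, with a log2 fold change of -1.34 (SE 0.12, adjusted p = 1.37e-05). SLC48A1, which moves heme out of endosomes and lysosomes, was 84.1, 103 and 111 in T24 against 196, 209 and 293 in T24-R. T24-R replicate 3 was the highest library, and the groups did not overlap. Its log2 fold change was 1.20 (SE 0.19, adjusted p = 0.000343), but -0.14 with TMM factors. The zinc carriers of the SLC30 and SLC39 families had no listed gene.

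All 5 listed carriers of inorganic ions were higher in T24-R on the deposited scale, and 2 of the 5, among them SLC9A3 (-0.10), changed sign with TMM factors, where none of the 5 was called. SLC9A5, a sodium-proton exchanger, was 30.9, 57.2 and 49.4 in T24 against 282, 209 and 178 in T24-R. T24-R replicate 1 was the highest, and even replicate 3 was above all of T24. The means were 223 ± 53.6 in T24-R and 45.8 ± 13.5 in T24 (SD, n = 3), 4.87-fold apart, with a log2 fold change of 2.28 (SE 0.26, adjusted p = 5.4e-05), or 0.94 with TMM factors. Of the exonic bases of SLC9A5, 11.97% overlap other genes. SLC4A11, a bicarbonate-family member that conducts protons, was 56.4, 79.7 and 64.8 in T24 against 235, 233 and 192 in T24-R. Both groups were narrow, and its log2 fold change was 1.71 (SE 0.18, adjusted p = 2.83e-05), or 0.37 with TMM factors. SLC9A3, the apical sodium-proton exchanger of gut and kidney, was 23.4, 21.5 and 20.3 in T24 against 59.9, 67.4 and 34.3 in T24-R. T24-R replicate 3 lay below the other two but above T24. The log2 fold change was 1.22 (SE 0.29, adjusted p = 0.00298), and 1.51 without that library. In SLC9A3, 56.8% of exonic bases overlap other annotated genes and 38.4% of 50-base stretches recur elsewhere, so its counts are uncertain. The phosphate cotransporter SLC34A3 was at the floor in T24, and T24-R lay at least 3.07-fold above it.

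Among 3 carboxylate carriers the directions differed. SLC16A3 encodes MCT4, which exports lactate with a proton from glycolytic cells, and its counts were high in both groups. It lies on chromosome 17, 82228397 to 82261129, and was measured at 11500.3, 11263 and 10957 in T24 against 5486, 5076 and 4198 in T24-R. The T24-R libraries were all under the lowest T24 library, and replicate 3 was the lowest. The means were 4919.9 ± 658 in T24-R and 11240.2 ± 272 in T24 (SD, n = 3), 2.28-fold lower in T24-R, with a log2 fold change of -1.20 (SE 0.13, adjusted p = 3.5e-05). NPTN, 1 of 14 partner proteins of transporters on a list and the only one listed in the table, is a chaperone of monocarboxylate transporters. Its log2 fold change was -1.04 (SE 0.12), and -0.92, short of the fold threshold, without T24-R replicate 3. SLC16A14, an orphan of the monocarboxylate transporter family, had a log2 fold change of 1.49 (SE 0.27), or 0.19 with TMM factors. For SLC5A12, a sodium-coupled lactate transporter, it was 0.97 (SE 0.31, adjusted p = 0.0137), under the fold threshold, and -0.33 with TMM factors. It passed the threshold when T24 replicate 1 or either of T24-R replicates 1 and 2 was left out.

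The 3 listed lipid and vitamin carriers were higher in T24-R, and with TMM factors SLC52A1 alone was called. SLC52A3, a riboflavin transporter, was 20.2, 29.6 and 30.00 in T24 against 91.8, 107 and 111 in T24-R. Every T24-R library was well above the highest T24 library. The log2 fold change was 1.93 (SE 0.22, adjusted p = 4.97e-05), or 0.61 with TMM factors. Its paralog SLC52A1, also a riboflavin transporter, had a log2 fold change of 2.40 (SE 0.28), from 8, 6 and 7 reads in T24. SLC27A1, which takes up long-chain fatty acids, was 158, 173 and 140.3 in T24 against 413, 337 and 349 in T24-R. The groups did not overlap, and the log2 fold change was 1.22 (SE 0.14, adjusted p = 5.14e-05), but -0.13 with TMM factors.

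The mitochondrial carriers held most of the members' summed scaled count in T24. Of 6 listed, 4 were lower and 2 higher in T24-R, and with TMM factors the same 4 were called lower and the other 2 were not called. SLC25A5 and SLC25A6 encode the adenine nucleotide translocators ANT2 and ANT3, which exchange cytosolic ADP for ATP made in the matrix. SLC25A5 (chromosome X, 119468400 to 119471319) was 23733, 20539.6 and 19853 in T24 against 10908, 10201 and 9439.8 in T24-R. T24 replicate 1 was the highest library, and all T24-R libraries were far under T24. The means were 10183 ± 734 in T24-R and 21375 ± 2070.4 in T24 (SD, n = 3), 2.10-fold lower in T24-R, with a log2 fold change of -1.07 (SE 0.13, adjusted p = 6.78e-05). Without T24 replicate 1 the log2 fold change was -0.99 and the call was lost. Of its exonic bases, 13.2% overlap the antisense gene SLC25A5-AS1. SLC25A6 (chromosome X, 1386152 to 1392724) was 14173, 12770.0 and 12232 in T24 against 5333, 5019.9 and 5068 in T24-R. The T24-R libraries lay close together, all below the lowest T24 library. Its mean was 2.54-fold lower in T24-R, with a log2 fold change of -1.34 (SE 0.11, adjusted p = 9.76e-06).

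SLC25A51, the mitochondrial NAD carrier, was 367, 389 and 367 in T24 against 166, 159.8 and 203 in T24-R (chromosome 9, 37879400 to 37904353). The T24 libraries were within a narrow band above T24-R. The log2 fold change was -1.09 (SE 0.13, adjusted p = 6.97e-05). Of its 50-base stretches, 16.1% recur elsewhere, mainly in its near copy SLC25A52. SLC25A21, an oxodicarboxylate carrier with 37.2% of its exonic bases overlapping other genes, had a log2 fold change of -1.15 (SE 0.26). The 2 members with higher values were SLC25A27, an uncoupling protein homolog, at 1.02 (SE 0.22), and SLC25A45, at 1.07 (SE 0.22). Both flipped with TMM factors, to -0.32 and -0.25, and both lost their calls without T24 replicate 1 or T24-R replicate 2, SLC25A27 also without T24-R replicate 1, at values down to 0.90 for SLC25A27 and 0.96 for SLC25A45. SLC35E2B, the only listed gene of the nucleotide sugar transporter family, was 1228, 1221 and 1277 in T24 against 2693, 2875 and 3077 in T24-R. It was the most highly counted member among those higher in T24-R, with no overlap. Its log2 fold change was 1.21 (SE 0.10, adjusted p = 9.54e-06), but -0.14 with TMM factors, and 21.3% of its 50-base stretches recur in other genes.

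**Figure D2:**
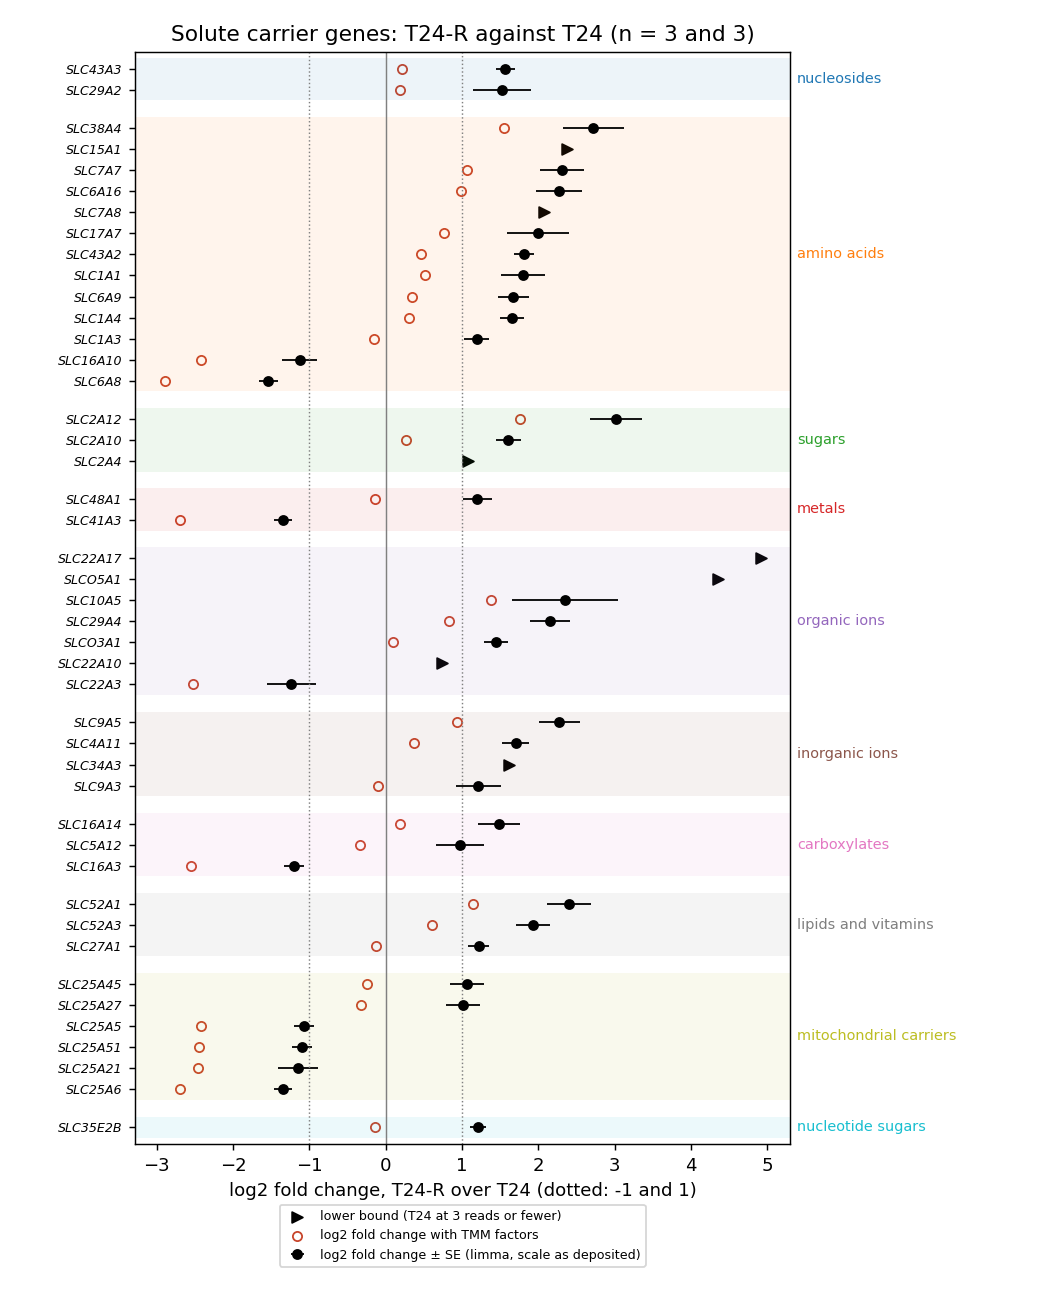
Log2 fold change between the strains (T24-R over T24) for 44 members (limma, n = 3 and 3) by class, filled circles with standard errors on the deposited scale, open circles with TMM factors, and triangles for lower bounds where T24 was at 3 reads or fewer. Filled circles lie on both sides of 0, and 8 members, among them SLC35E2B and SLC25A27, have open circles on the other side of 0 from their filled ones.

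Promoters of the 3 most highly counted members and of SLC22A17, the member with the highest bound, are shown at a RefSeq start of each. Each window runs from 250 bases before to 50 bases after a RefSeq start on GRCh38.p14 and is written 5′ to 3′ on the strand of the gene. Capitals mark the GC box GGGCGG on either strand, with in addition TATAAA in SLC25A5, CCAAT in SLC25A6 and the hypoxia response core ACGTG in SLC16A3. RefSeq gives 1 window each for SLC25A5 and SLC25A6, 5 for SLC16A3 and 2 for SLC22A17. For SLC16A3 and SLC22A17 the window that holds the marked motifs was taken, after the motifs were seen. Those windows lie inside the coordinates of their genes, and another window of each gene reaches past its 5′ end. The windows lie at chrX:119468194-119468493 (plus strand) for SLC25A5, chrX:1392064-1392363 (minus strand) for SLC25A6, chr17:82228792-82229091 (plus strand) for SLC16A3 and chr14:23352402-23352701 (minus strand) for SLC22A17.
SLC25A5: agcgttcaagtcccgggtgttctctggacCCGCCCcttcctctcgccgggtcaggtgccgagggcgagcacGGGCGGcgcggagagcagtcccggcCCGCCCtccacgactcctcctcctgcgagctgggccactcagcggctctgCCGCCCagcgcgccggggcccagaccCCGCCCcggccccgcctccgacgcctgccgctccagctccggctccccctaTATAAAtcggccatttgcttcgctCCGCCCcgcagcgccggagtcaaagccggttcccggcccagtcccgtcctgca
SLC25A6: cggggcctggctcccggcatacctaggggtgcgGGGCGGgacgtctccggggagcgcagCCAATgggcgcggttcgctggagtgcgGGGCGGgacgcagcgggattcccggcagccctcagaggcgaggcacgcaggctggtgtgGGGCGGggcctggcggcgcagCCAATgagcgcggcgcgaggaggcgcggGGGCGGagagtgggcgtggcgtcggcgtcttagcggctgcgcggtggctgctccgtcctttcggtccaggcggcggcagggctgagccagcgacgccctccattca
SLC16A3: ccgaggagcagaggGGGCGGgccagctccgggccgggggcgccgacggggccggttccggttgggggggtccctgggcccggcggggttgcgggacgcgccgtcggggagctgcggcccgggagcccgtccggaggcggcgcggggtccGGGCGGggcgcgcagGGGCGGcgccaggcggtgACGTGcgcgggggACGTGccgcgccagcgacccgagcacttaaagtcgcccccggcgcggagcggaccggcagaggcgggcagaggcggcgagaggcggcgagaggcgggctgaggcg
SLC22A17: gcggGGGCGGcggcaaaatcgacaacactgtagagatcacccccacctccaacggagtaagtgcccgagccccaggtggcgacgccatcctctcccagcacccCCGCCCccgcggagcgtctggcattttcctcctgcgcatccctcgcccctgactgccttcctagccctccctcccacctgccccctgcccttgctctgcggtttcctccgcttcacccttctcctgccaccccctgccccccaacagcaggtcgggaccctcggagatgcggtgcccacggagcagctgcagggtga
The SLC25A5 window holds 6 GC boxes and a TATA box whose first base lies at -27 from the start. The SLC25A6 window holds 4 GC boxes and 2 CCAAT boxes, at -191 and -84. The SLC16A3 window shown holds 3 GC boxes and 2 hypoxia response cores, at -68 and -55. The SLC22A17 window shown holds 2 GC boxes, while the other window of that gene, chr14:23352838-23353137, holds CCAAT and ACGTG and no GC box.

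RefSeq promoter windows were found for 35 of the 46 members, 55 windows in all, and were set beside all 34961 windows of the same length. The median GC content was 65.3% in members and 58.7% in all windows. The GC box was in 63.6% of the members' windows and 45.0% of all. ACGTG, which includes the E-box CACGTG, was in 29.1% and 21.4%, CACGTG alone in 9.09% and 7.27%, CCAAT in 30.9% and 34.6%, and TATAAA in 7.27% and 11.5%. The palindromic NRF1 motif was in 1 window, that of SLC6A16, and in 1.24% of all. The ETS motif CCGGAAG was in 0 member windows and 10.3% of all, and the CRE TGACGTCA in 0 and 1.85%. Both strands were searched, and a match is a stretch of letters, with no statement on binding.

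The members differed widely in level. Per kilobase of gene length, the mean scaled count of SLC25A5 was 14250.2 in T24 against 6789 in T24-R, which was the value of rank 6 in the table by level in T24. Per kilobase SLC25A6 followed with 6034 in T24 against 2375 in T24-R, then SLC6A8 with 1272 in T24 against 441 in T24-R and SLC16A3 with 1249.6 in T24 against 547 in T24-R. SLC35E2B reached 148 in T24 against 343 in T24-R, and SLC43A3 56.1 in T24 against 168 in T24-R. The 4 genes with the highest level per kilobase in T24 were all lower in T24-R. Their scaled counts summed to 52668 ± 3386 in T24 and 22669 ± 1260.3 in T24-R (SD, n = 3 each). The other 42 members summed to 6447 ± 307 in T24 and 9558 ± 651 in T24-R. So the 46 genes together held 59116 ± 3117 in T24 and 32227 ± 860 in T24-R (mean ± SD), although most single members were higher in T24-R. The 4 genes made up 89.1% ± 1.04 of the sum in T24 and 70.3% ± 2.43 in T24-R.

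On the deposited scale, the direction also split by level in the rest of the table. Of 6 members with a mean of at least 1000 over all libraries, SLC35E2B was higher in T24-R and 5 were lower. Of all 215 protein-coding genes at that level, 60 were higher and 152 lower. Of the 40 members under 1000, 34 were higher and 5 lower, and of 1709 protein-coding genes under 1000, 1258 were higher and 421 lower.

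**Figure D3:**
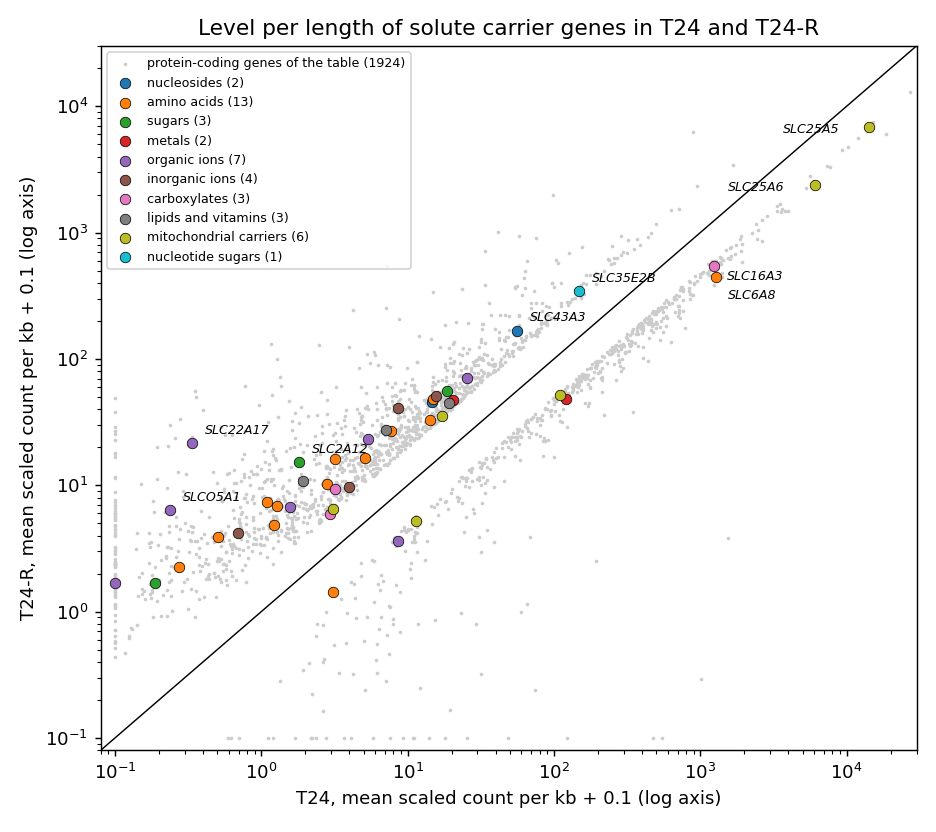
Mean scaled count per kilobase + 0.1 in T24 (x) and T24-R (y), both log axes, for 44 members coloured by class and all 1924 protein-coding genes in grey, with the line of equal values. The 4 members furthest to the right, from SLC16A3 to SLC25A5, lie below the line, and most others lie above it.

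By position, SLC25A5, SLC25A6 and SLC6A8 lie on chromosome X, and all 3 were lower in T24-R. SLC25A6 lies in the pseudoautosomal region, which is shared with chromosome Y. Among the other 129 listed protein-coding genes of chromosome X, 100 were lower and 29 higher.

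T24-R replicate 3 differed from the other T24-R libraries in many members. It lay outside the range of replicates 1 and 2 in 40 of 46 members, and in 2002 of all 2462 genes. With 3 libraries, the lowest and the highest are always outside the range of the others, and the other 5 libraries were so in 23 to 34 members, and in 1325 to 1665 of all genes. The chi-square of its reads against those of replicate 1, averaged over members, was 15.2, and 12.6 against replicate 2, while replicates 1 and 2 gave 2.65. In T24 the corresponding averages ran from 2.34 to 15.6. The member medians were 3.77 and 2.57 for replicate 3 against replicates 1 and 2, 0.71 between replicates 1 and 2, and 0.61 to 0.82 in T24. Averaged over all listed genes with enough reads, the values were 71.04 and 72.5, 1.84, and 3.44 to 9.19, in the same order. As a ratio to the mean of replicates 1 and 2, replicate 3 was at 0.390 in SLC29A2, 0.538 in SLC9A3 and 0.566 in SLC22A3, and at 1.79 in SLC15A1 and 1.68 in SLC5A12. Without it, 35 members were called higher and 9 lower, and SLC22A3 was the call lost.

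**Figure D4:**
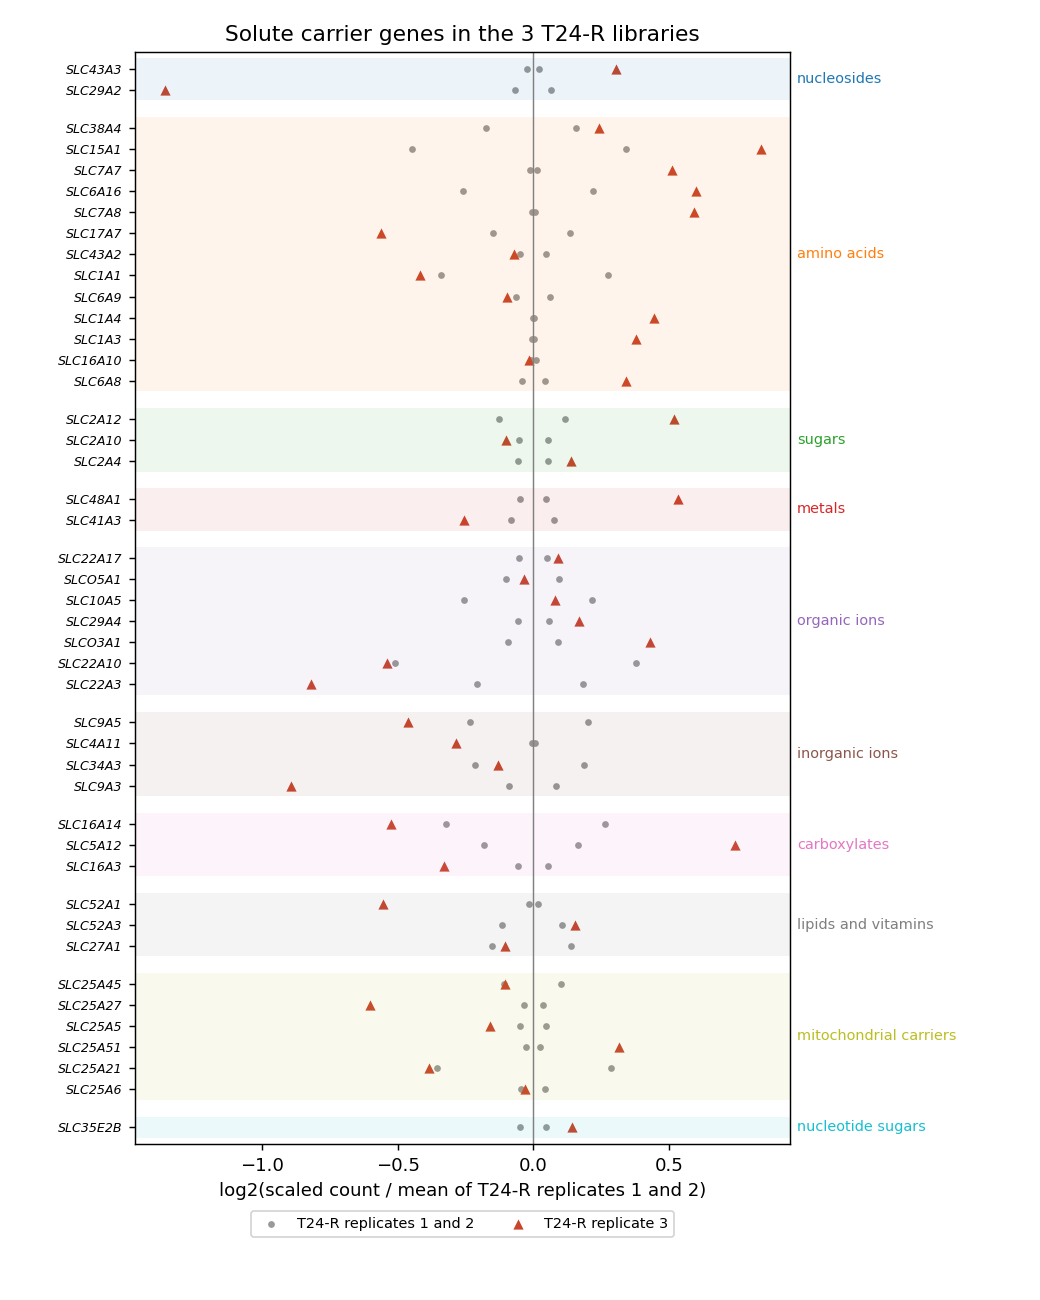
Log2 ratio of each T24-R library to the mean of T24-R replicates 1 and 2 for 44 members, with grey circles for replicates 1 and 2 and triangles for replicate 3. The triangle lies outside the grey pair in 38 members, furthest to the left in SLC29A2 (a ratio of 0.390) and furthest to the right in SLC15A1 (1.79).

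Genes that act with these carriers were taken from lists of gene names. Of 15 genes that handle gemcitabine in the cell, 1 was listed. This was TK2, the mitochondrial thymidine kinase, at 138, 129 and 118 in T24 against 339, 360.2 and 273 in T24-R. Its T24-R libraries were all above T24, with a log2 fold change of 1.32 (SE 0.15, adjusted p = 4.54e-05) that became -0.02 with TMM factors. Of 20 genes of cisplatin and metal handling, 2 were listed and both were lower, beside 29.2% of all listed genes. TFRC, the transferrin receptor of iron uptake, was 9461, 9464 and 10265 in T24 against 2802, 2916 and 3449.8 in T24-R, with a log2 fold change of -1.68 (SE 0.12, adjusted p = 4.35e-06). GCLM, the modifier subunit of the enzyme that starts glutathione synthesis, was 1425, 1431 and 1478 in T24 against 597, 640.1 and 700.2 in T24-R, with -1.16 (SE 0.10, adjusted p = 1.4e-05). Neither gene's groups overlapped.

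Of 14 sensors and regulators of transporter genes, 4 were listed and all were higher in T24-R, beside 69.2% of all listed genes. With TMM factors PPARGC1A alone of the 4 was called, at TMM values of 0.36 for TXNIP, 0.28 for ARRDC3 and 0.10 for ARRDC4. TXNIP and ARRDC4, arrestin-family proteins that restrain glucose uptake, had log2 fold changes of 1.70 (SE 0.17) and 1.38 (SE 0.30), and their relative ARRDC3 had 1.63 (SE 0.19). PPARGC1A, a coactivator of genes for mitochondrial function, had 0 reads in all T24 libraries and at least 4.76-fold more than the floor in T24-R.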

How the data were processed

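RNA was sequenced from 3 libraries of T24 and 3 of T24-R. According to the methods, the authors filtered reads with fastp, aligned them to GRCh38 with HISAT2, used featureCounts for gene counts, and compared the strains by DESeq2. Their annotation version and use of strand are not given in the sources used here. The table they deposited holds genes selected by that test, with the authors' group means, log2 fold changes and p-values, which were not used. The log2 values the authors deposited are DESeq2 fold changes of T24-R over T24. The signal values the authors deposited are counts divided by a size factor per library. Whole reads were recovered from 100% of values (tolerance 1e-06).

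As the values were normalized, limma was the main test. Values were tested as log2(value + 1) with limma 3.58.1 (eBayes with trend, R 4.3.3) over all 2462 genes, with Benjamini-Hochberg adjustment. As these genes had been selected on the same contrast, the adjusted p-values are descriptive. Fold changes on this scale understate those of low genes. Folds from floor genes were bounded at 3 reads per library. Alternatives were TMM factors, limma without trend, a mean of at least 10, pseudocounts of 0.1 and 10, a replicate block, edgeR 4.0.16 and DESeq2 1.42.0 on recovered reads, limma's treat with a threshold of 1 on the log2 scale, and fits that each lacked a library. Overlaps and 50-base stretches shared between genes were taken from GENCODE version 44. Gene coordinates are those of the table.

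The members, lists, motifs and tests were chosen with earlier results of these data known. Values in every library were given for the nucleoside class, for the drug transporters, for the 3 members per class with the largest absolute fitted change, given a mean of at least 50 in the higher group, and for members at the floor in 1 group with a mean of at least 50 in the other. SLC6A8 was added after its values were seen. In addition, 2 members are included in the counts but not reported one by one here. In addition, limma, edgeR and DESeq2 were run on simulated counts in which 200 genes had been changed. Those changes were split evenly between higher and lower, unlike the changes in this table. Python 3.11.15 was used for the rest.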

Additional observations from a re-analysis of the deposited data

How the results depend on the processing

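The counts of 35 higher and 10 lower members were 35 and 10 without trend and with a pseudocount of 0.1, 36 and 10 with edgeR and with DESeq2, and 28 and 7 with a pseudocount of 10. With TMM factors they were 10 and 10, and with treat 24 and 3. Among the 44 members reported one by one, 16 lost their call with treat. These included SLC16A3 (treat adjusted p = 0.119), SLC25A5 (0.352), SLC25A51 (0.305), SLC22A3 (0.296), SLC9A3 (0.289), SLC48A1 (0.216) and SLC1A3 (0.195). TMM factors turned the log2 fold change of 9 members, among them SLC1A3 (-0.15), SLC5A12 (-0.33), SLC9A3 (-0.10), SLC27A1 (-0.13), SLC48A1 (-0.14), SLC25A45 (-0.25), SLC25A27 (-0.32) and SLC35E2B (-0.14), and of TK2 (-0.024) and ACTA2 (-0.035). When each library was left out, 33 to 35 members were higher and 9 to 10 lower. Calls were lost for SLC25A5 without T24 replicate 1 (-0.99), for SLC25A45 (down to 0.96) and SLC25A27 (down to 0.90) without T24 replicate 1 or T24-R replicate 2, for SLC25A27 also without T24-R replicate 1, and for SLC22A3 without T24-R replicate 3 (-0.99), and SLC5A12 was gained when T24 replicate 1 or either of T24-R replicates 1 and 2 was left out. The replicate numbers are shared between the groups, and same-numbered libraries deviated together by r = 0.12, 0.02 and 0.18 across genes. Libraries with different numbers gave r from -0.16 to 0.11. Each T24 library correlated best with the T24-R library of its own number, while T24-R replicate 2 correlated best with T24 replicate 1. As every r was weak, the libraries were not taken as pairs, but a pairing is not excluded. With the replicate number as a block the calls were 35 and 10. Members with few reads, such as SLC22A10 and SLC2A4, are limited by depth.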

Other observations

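The table also lists 2 rows with SLC symbols that are not protein-coding, and they belong to none of the counts above. SLC9A7P1 is a pseudogene of a sodium-proton exchanger, and its limma log2 fold change was 1.67 (SE 0.33), T24-R over T24. SLC2A1-AS1, an RNA antisense to the main basal glucose transporter gene, had 2, 3 and 1 reads in T24 and 9, 9 and 15 in T24-R, at least 3.49-fold higher against the floor of 3 reads.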
